A study of Mus musculus with 11 samples.

Results

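The genes described here are 46 mouse genes of DNA replication and cell division, followed in whole retina at 2 postnatal ages. They were taken by symbol as a list of S phase and G2/M genes, and all 46 had a row among the 47069 Ensembl genes counted in each of 11 RNA-seq libraries. By role, 12 license replication origins or build the replication fork, 3 supply nucleotides, 4 act in S phase transcription, chromatin or checkpoint control, 7 are cyclins or cyclin-dependent kinases, 8 are mitotic kinases or control the spindle checkpoint and anaphase, 9 belong to the kinetochore and spindle, and 3 are general marks of proliferation.

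The libraries came from C57BL/6 mice of 2 genotypes. Brn3b-Kir2.1 mice carried Brn3b-cre, a Cre line for retinal ganglion cells, and a transgene of human Kir2.1 fused to eYFP behind a CAG promoter and a floxed STOP cassette. Kir2.1 is an inwardly rectifying potassium channel that damps the electrical activity of a cell. The control libraries are labelled wild type, although the protocol speaks of Brn3b-cre mice, so the Cre allele may be common to all groups. At P4 the control group had 2 libraries and the Kir2.1 group 3, and each had 3 at the later age, which the age field gives as P8 and the protocol as P11. It is called P8 here. The source field names retinal ganglion cells, but the tissue field and the protocol describe dissociated retina with no sorting step, and rod markers were present in every library. Nothing in the labels says that the libraries of a group came from separate animals, so the p-values measure only the spread between these samples. RNA from whole retina averages over its cells, so fewer dividing cells and less RNA per dividing cell cannot be told apart.

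A cell that divides copies its DNA in S phase, after origins have been licensed in G1, and separates the copies in mitosis. Separate waves of transcription serve these phases. Genes of S phase are targets of E2F factors, which the retinoblastoma protein holds in check, while genes of G2 and mitosis are switched on later through the MuvB complex with B-Myb and FoxM1. In the mouse retina, progenitors go on dividing in the first postnatal days and produce the last rods, bipolar cells and Mueller glia, and proliferation then ends from the centre outwards.

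Total counts over genes ranged from 9362215 to 12478838 per library. Values are CPM, counts scaled to a common library size with TMM, which corrects library sizes for differences in composition. Kir2.1 P8 replicate 2 held 31325 genes with a count, and the other 10 libraries 22609 to 24591. Mouse Kcnj2, the gene of Kir2.1, ranged from 2.46 to 17.2 CPM and did not separate the genotypes at either age (edgeR adjusted p = 0.814 at P4 and 0.977 at P8). The transgene is human, and the sources used here do not say whether its reads were counted on mouse Kcnj2, so this gene does not check the labels. Markers of retinal cells differed between libraries of a group. Rod markers (10 genes) summed to 253 and 1288 CPM in the wild-type P4 libraries, 469 to 808 in Kir2.1 P4, 840, 3329 and 7350 in wild-type P8 and 6869 to 7094 in Kir2.1 P8.

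One library stood apart for the cell cycle genes themselves. Wild-type P4 replicate 2 was the lowest of the 5 P4 libraries for all 46 genes, against 22.8% of all 18188 genes tested. In it the genes stood at a median of 40.3% of their level in wild-type P4 replicate 1, with a range of 14.5% to 68.5%, where the median over all genes tested was 99.7%. The summed level of the 46 genes was 5049 CPM in replicate 1 and 1981 CPM in replicate 2, beside 5314, 4430 and 4250 CPM in the Kir2.1 P4 libraries. The 16 retinal progenitor markers summed to 1666 CPM in wild-type P4 replicate 1 and 1023 CPM in replicate 2. The part of cell makeup in this gap was not tested, and the medians that rest on the wild-type P4 libraries are given with and without each of them. Kir2.1 P8 replicate 2 was the highest of the 6 P8 libraries for 19 of the 46 genes, against 19.4% of all genes tested.

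The largest change in these genes was the fall between the 2 ages. The question of this comparison is how far expression of the division machinery declined between P4 and P8 in each genotype. From P4 to P8, 41 of the 46 genes fell and 0 rose in wild type at an adjusted p under 0.05 in edgeR's quasi-likelihood test, where 3.58% of all genes tested fell and 0.803% rose. In Kir2.1 retina all 46 fell, where 8.73% of all genes tested fell and 7.93% rose. The median log2 fold change of the 46 genes was -2.92 for wild type and -3.22 for Kir2.1, beside 0.03 and 0.00 over all genes tested. The summed level went from the P4 values above to 368, 364 and 393 CPM in wild-type P8 and 424, 466 and 390 CPM in Kir2.1 P8, with no overlap between ages.

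**Figure D1:**
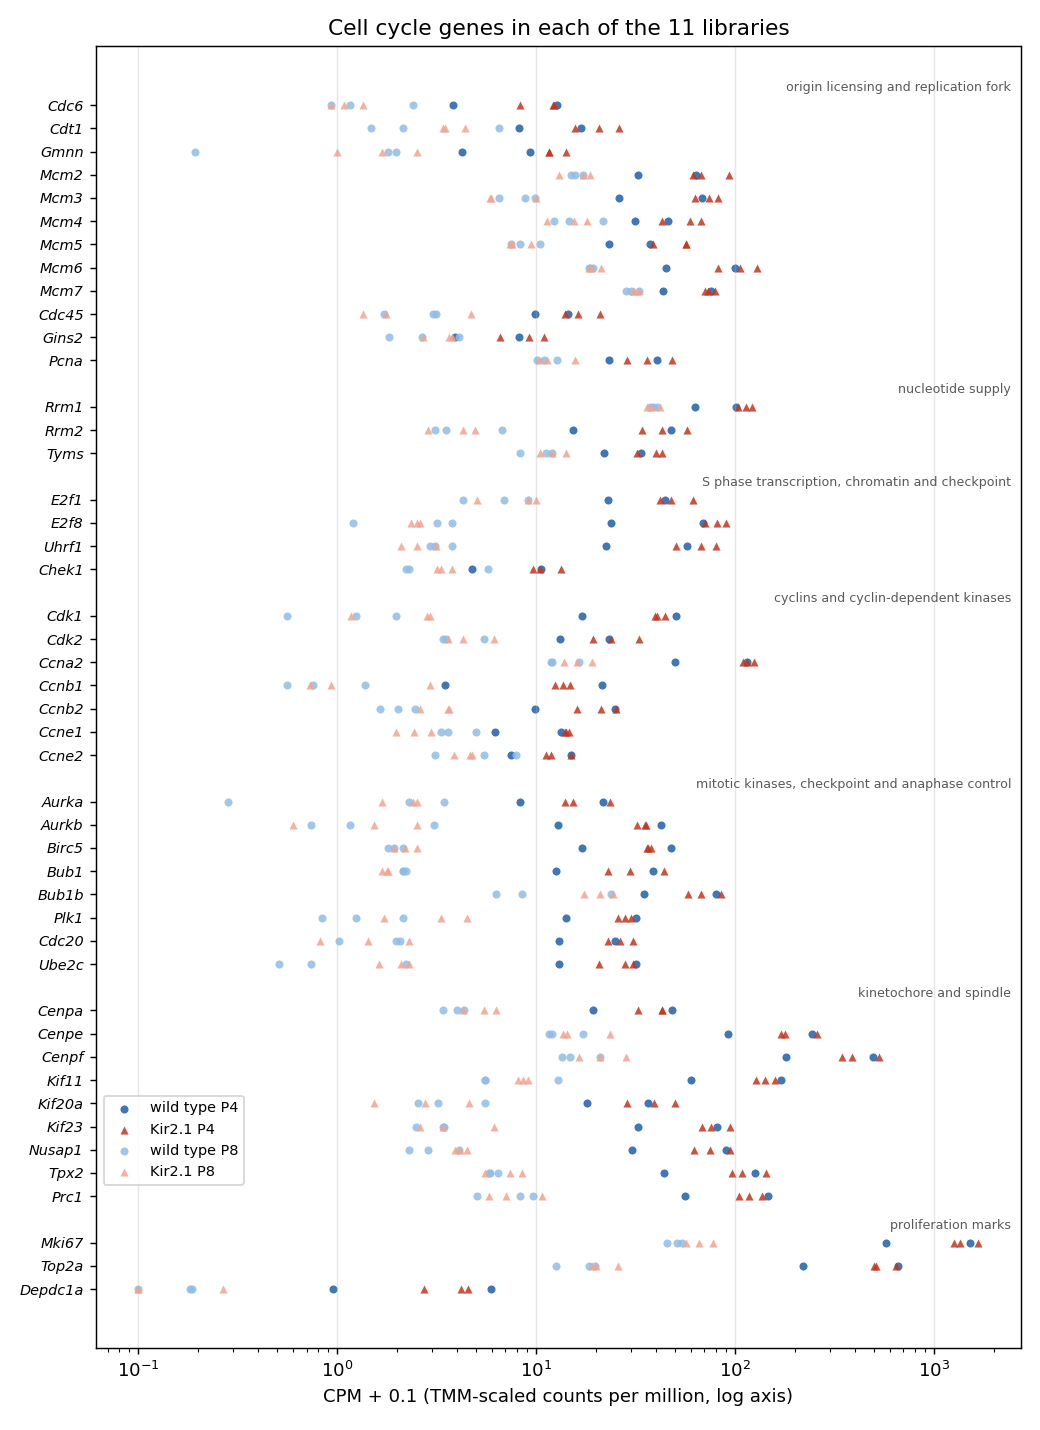
Level of each of the 46 genes in each library, on a log axis of CPM + 0.1, with genes in rows by role; circles are wild type, triangles Kir2.1, dark P4 and light P8. In Kir2.1 the P4 and P8 points do not overlap for any of the 46 genes, and in wild type they do not overlap for 43.

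The P4 and P8 libraries did not overlap for 43 of the 46 genes in wild type, where 16.9% of all genes tested were lower at P8 without overlap. In Kir2.1 they did not overlap for all 46, where this share was 18.7%. The fall in wild type rests partly on wild-type P4 replicate 1: without it the median was -2.08, and without replicate 2 it was -3.47. With only the wild-type libraries in the model, 20 of the 46 genes were called. Fewer of all genes tested were called there too than with all libraries in the model. The 5 genes not called in wild type, named for that reason after their values were seen, were Cdt1, a licensing factor, Gmnn, its inhibitor geminin, Gins2, a subunit of the replicative helicase, Chek1, a checkpoint kinase, and Ccne2, cyclin E2. Their log2 fold changes in wild type were -1.90, -2.42, -1.11, -1.19 and -1.04, with adjusted p from 0.059 to 0.17.

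Among origin and fork genes, 9 of 12 fell in wild type and 12 of 12 in Kir2.1, with medians of -1.85 and -2.47. Mcm2 to Mcm7 encode the ring of the replicative helicase. Mcm6 measured 99.8 and 45 CPM in the wild-type P4 libraries, 106, 129 and 81.6 in Kir2.1 P4, 18.4, 18.4 and 19.2 in wild-type P8 and 18.2, 18.8 and 21.1 in Kir2.1 P8. All 6 P8 libraries lay within 3 CPM of each other and below every P4 library. Its log2 fold change was -1.95 ± 0.27 (SE) in wild type and -2.44 ± 0.26 in Kir2.1 (edgeR adjusted p = 0.0017 and 1.4e-04). Each SE in this text was derived from edgeR's F test, as the absolute log2 fold change over the square root of F. It is not a separate estimate of the model. Mcm7 kept more of its level than any other of the 46 genes in both genotypes. It measured 75.2 and 43.2 CPM in wild-type P4, 70.3, 79.4 and 72.8 in Kir2.1 P4, 30.0, 28.0 and 32.9 in wild-type P8 and 32.7, 30.7 and 30.9 in Kir2.1 P8. The groups did not overlap, and the log2 fold changes were -0.97 ± 0.19 and -1.24 ± 0.17 (edgeR adjusted p = 0.012 and 7.5e-04). The call in wild type was lost without wild-type P4 replicate 1 (-0.52, edgeR adjusted p = 0.33), without wild-type P8 replicate 2 (-0.91, adjusted p = 0.054) and with only the wild-type libraries in the model (adjusted p = 0.16). Mcm7 is the host of Mir25 and Mir93 and shares 7.25% of its exon bases with Ap4m1 on the opposite strand, and whether the counting used strand is not given in the sources used here. Gins2 fell less than most: it measured 8.12 and 3.81 CPM in wild-type P4, 10.9, 9.06 and 6.47 in Kir2.1 P4, 2.57, 4.00 and 1.71 in wild-type P8 and 3.56, 3.65 and 2.59 in Kir2.1 P8. In wild type the ages overlapped, since P8 replicate 2 was above P4 replicate 2. Its log2 fold change in Kir2.1 was -1.43 ± 0.39 (edgeR adjusted p = 0.026). This call was lost when any of 5 of the 6 Kir2.1 libraries was left out, with values from -1.51 to -1.27 and edgeR adjusted p from 0.062 to 0.10. In addition, 67.3% of its exon bases overlap Gse1 on the opposite strand.

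All 3 nucleotide supply genes fell in both genotypes. Rrm1, the large subunit of ribonucleotide reductase, measured 101 and 62.7 CPM in wild-type P4 and 113, 122 and 103 in Kir2.1 P4, against 38.6, 37.1 and 40.2 in wild-type P8 and 41.7, 37.8 and 36.1 in Kir2.1 P8. The ages were separate, with log2 fold changes of -1.08 ± 0.17 and -1.55 ± 0.16 (edgeR adjusted p = 0.0038 and 1.2e-04). Its partner Rrm2, the subunit whose supply is tied to S phase, fell further, with log2 fold changes of -2.86 and -3.50. Tyms, thymidylate synthase, went from 33.6 and 21.7 CPM in wild type and 39.9, 42.6 and 31.9 in Kir2.1 to 11.1, 8.17 and 12 and to 10.4, 11.9 and 14.0. Every P8 library was below every P4 library (log2 fold change -1.41 ± 0.24 and -1.66 ± 0.22, edgeR adjusted p = 0.0048 and 4.7e-04).

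Of the 4 S phase regulators, E2f8 and Uhrf1 fell the most. E2f8, an E2F factor that represses E2F targets, measured 68.7 and 23.7 CPM in wild-type P4 and 81.2, 89.3 and 70.6 in Kir2.1 P4. At P8 it measured 1.10, 3.06 and 3.66 in wild type and 2.24, 2.5 and 2.41 in Kir2.1. No P8 library came near a P4 library, and the log2 fold changes were -4.13 ± 0.44 and -5.07 ± 0.43 (edgeR adjusted p = 2.9e-04 and 5.7e-05). Uhrf1, which carries DNA methylation through replication, measured 56.9 and 22.3 CPM in wild-type P4, 66.8, 79.5 and 50.3 in Kir2.1 P4, 3.66, 2.81 and 3.01 in wild-type P8 and 1.99, 3.03 and 2.41 in Kir2.1 P8. Its log2 fold changes were -3.65 ± 0.36 and -4.73 ± 0.36 (edgeR adjusted p = 1.9e-04 and 4.5e-05). E2f1, an activating E2F, fell by 2.34 and 2.66 on the log2 scale.

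Of the 7 cyclins and kinases, 6 fell in wild type and 7 in Kir2.1. Cdk1, the kinase that drives entry into mitosis, measured 50.1 and 16.8 CPM in wild-type P4, 39.5, 44.1 and 40.5 in Kir2.1 P4, 0.458, 1.87 and 1.14 in wild-type P8 and 2.73, 2.82 and 1.07 in Kir2.1 P8. Its levels at P8 were a few percent of those at P4, at 3.45% in wild type and 5.33% in Kir2.1 by group means. The log2 fold changes were -4.83 ± 0.53 and -4.23 ± 0.48 (edgeR adjusted p = 3.1e-04 and 1.9e-04). Cdk2, which acts earlier with cyclins E and A, fell by 2.17 and 2.46 on the log2 scale. Ccna2, cyclin A2 of S phase and G2, measured 115 and 49.5 CPM in wild-type P4, 123, 109 and 114 in Kir2.1 P4, 11.7, 11.8 and 16.3 in wild-type P8 and 13.8, 19 and 15.9 in Kir2.1 P8. The ages did not overlap, and the log2 fold changes were -2.63 ± 0.29 and -2.84 ± 0.27 (edgeR adjusted p = 3.1e-04 and 7.8e-05). Cyclin E2, Ccne2, measured 14.8 and 7.36 CPM in wild-type P4 and 7.79, 5.36 and 3.01 in wild-type P8, so that the ages overlapped. In Kir2.1 it measured 11.1, 14.8 and 11.7 CPM at P4 and 4.64, 3.76 and 4.55 at P8, without overlap (log2 fold change -1.53 ± 0.35, edgeR adjusted p = 0.012).

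All 17 genes of mitosis fell in both genotypes. Birc5, survivin of the chromosomal passenger complex, measured 47.5 and 16.8 CPM in wild-type P4, 37.6, 35.8 and 36.3 in Kir2.1 P4, 1.83, 1.70 and 2.03 in wild-type P8 and 1.82, 2.09 and 2.41 in Kir2.1 P8. The fold changes were -4.11 ± 0.36 and -4.11 ± 0.35 on the log2 scale (edgeR adjusted p = 1.7e-04 and 5.4e-05). Bub1b, a spindle checkpoint kinase, kept the most of this group, at 22.3% and 29.8% of its P4 group mean. Its call was lost under 3 of the alternatives in wild type and 3 in Kir2.1, with log2 fold changes of -2.18 to -1.43 and -1.75 to -1.61. Cenpf and Cenpe, both of the kinetochore, were the most abundant of the spindle group. Cenpf measured 494 and 181 CPM in wild-type P4, 526, 343 and 385 in Kir2.1 P4, 20.8, 13.4 and 14.6 in wild-type P8 and 16.3, 28.1 and 20.8 in Kir2.1 P8 (log2 fold change -4.37 ± 0.38 and -4.27 ± 0.37, edgeR adjusted p = 1.7e-04 and 5.7e-05). Cenpe measured 244 and 91.9 CPM in wild-type P4, 257, 177 and 171 in Kir2.1 P4, 17, 11.5 and 12 in wild-type P8 and 14.1, 23.3 and 13.5 in Kir2.1 P8 (log2 fold change -3.64 ± 0.38 and -3.58 ± 0.36). For both genes the lowest P4 library, wild-type replicate 2, was still above the highest P8 library.

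All 3 general marks of proliferation fell in both genotypes. Mki67, the Ki-67 protein of the mitotic chromosome surface, measured 1518 and 572 CPM in wild-type P4, 1667, 1262 and 1350.2 in Kir2.1 P4, 45.3, 53.6 and 50.8 in wild-type P8 and 65.4, 77.4 and 56.1 in Kir2.1 P8. It was the highest of the 46 genes in CPM and also per kilobase of exon, at a median of 134 CPM per kb at P4 and 5.45 at P8. Its log2 fold changes were -4.39 ± 0.32 and -4.43 ± 0.31 (edgeR adjusted p = 1.1e-04 and 4.5e-05). Top2a, the topoisomerase that untangles chromosomes before they part, measured 659 and 219 CPM in wild-type P4, 645, 508 and 495 in Kir2.1 P4, 18.3, 19.7 and 12.4 in wild-type P8 and 20.0, 25.7 and 18.9 in Kir2.1 P8 (log2 fold change -4.71 ± 0.38 and -4.68 ± 0.36). Depdc1a was nearly gone at P8, with 2 counts over the 3 wild-type libraries against 78 over the 2 P4 libraries, and 2 against 132 in Kir2.1. The exact ratio was 58.0-fold lower in wild type (95% interval 15.5 to 487) and 61.6-fold lower in Kir2.1 (16.7 to 514), and these intervals cover counting error only.

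The size of the fall of single genes in wild type depended on the P4 library kept. Without wild-type P4 replicate 1 the log2 fold changes of Mcm6, E2f8, Cdk1, Mki67 and Top2a were -1.27, -3.17, -3.84, -3.52 and -3.71, and without replicate 2 they were -2.42, -4.70, -5.41, -4.93 and -5.29, all of them called. Rrm1, Tyms, Bub1b and Depdc1a were not called without replicate 1, at -0.70, -1.07, -1.43 and -3.66 (edgeR adjusted p = 0.079, 0.12, 0.45 and 0.31). With only the wild-type libraries in the model these 4 genes and Mcm6 were also not called (adjusted p from 0.054 to 0.19).

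**Figure D2:**
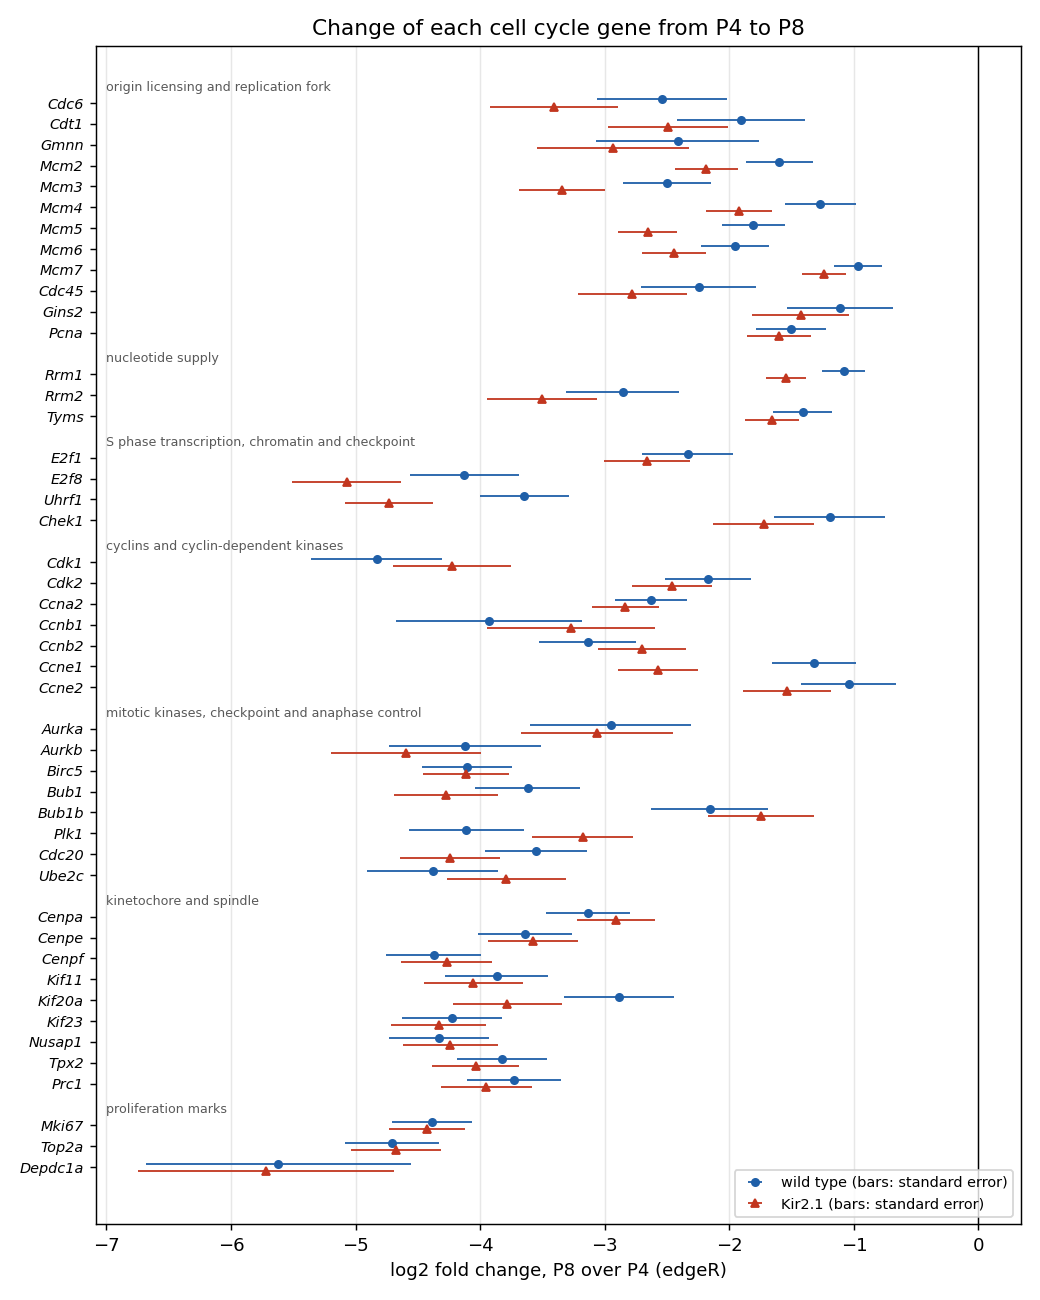
Log2 fold change from P4 to P8 of each of the 46 genes, by role, in wild type (circles) and Kir2.1 (triangles). Bars are 1 standard error, derived from edgeR's F test. Every point lies below 0, with medians of -1.9 and -2.49 for the 19 S phase genes and -3.82 and -4.04 for the 17 genes of mitosis.

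Genes of the 2 phases fell by different amounts. The 19 genes of S phase (origin, fork, nucleotide supply and S phase regulators) had a median log2 fold change of -1.9 in wild type and -2.49 in Kir2.1, and the 17 genes of mitosis -3.82 and -4.04. All 17 mitosis genes in wild type, and 16 of 17 in Kir2.1, were below the S phase median. The ranges of the classes overlapped. In Kir2.1 the S phase genes E2f8 and Uhrf1, at -5.07 and -4.73, were below the lowest mitosis gene, at -4.59. In wild type E2f8, at -4.13, was below the mitosis median. Left out in turn, wild-type P4 replicate 1 gave wild-type medians of -1.30 and -2.92, and wild-type P4 replicate 2 gave -2.33 and -4.39. In the libraries themselves the summed level of mitosis genes was 1.20 to 2.05 times that of S phase genes at P4 and 0.405 to 0.702 times at P8. These ratios did not overlap between ages. The highest at P8, 0.702, was Kir2.1 replicate 2, and the next was 0.571. The gap between the phases is given as a description, since genes of a list are not replicates.

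**Figure D3:**
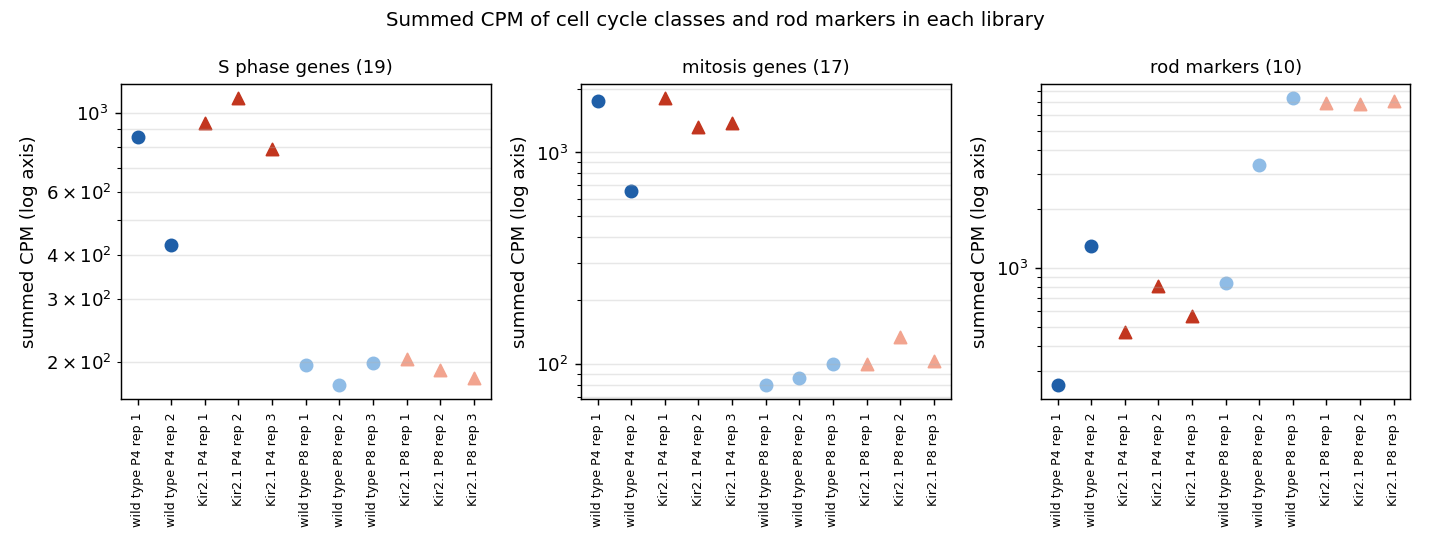
Summed CPM of the 19 S phase genes, the 17 mitosis genes and the 10 rod markers in each library, each on its own log axis. Wild-type P4 replicate 2 is the lowest P4 library for both cell cycle sums and the highest for rod markers, at 1288 CPM.

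The start regions of the genes were searched for the sequence elements known from promoters of the 2 phases. Of the 46 genes, 38 had at least 1 promoter window in RefSeq (GRCm38.p6), which runs from 250 bases before the start to 50 after it. Windows were searched on both strands for an E2F motif (TTTCCCGC, TTTGGCGC, TTTCGCGC or TTTGCCGC, which may overlap each other), for the CHR, the cell cycle genes homology region that MuvB binds (TTTGAA or TTCGAA), and for a CCAAT box (CCAAT), which the factor NF-Y binds. A gene was counted once if any of its windows held the motif: the 27025 genes had 32851 windows, and Mcm7, Uhrf1 and Prc1 had 2 each. The E2F motif was found for 7 of 16 S phase genes (43.8%), 0 of 14 mitosis genes and 2.60% of all 27025 genes. The CHR motif was found for 4 of 16 S phase genes (25%), 11 of 14 mitosis genes (78.6%), 3 of 3 of the proliferation marks and 21.7% of all genes. A CHR motif together with a CCAAT box was found for 25% of S phase genes, 78.6% of mitosis genes and 8.61% of all genes. Such short matches are letters in a window and not shown to be bound sites. The stretches below carry these matches, 5′ to 3′ on the strand of the gene, and none overlaps an annotated exon. The first 3 are S phase genes, with the E2F motif in capitals. Cdk1 joins both kinds, with E2F, CCAAT and CHR motifs in capitals. The last 3 are genes of mitosis or proliferation marks, with CCAAT and CHR motifs in capitals, read on either strand.
Cdc6, chr11:98908001-98908036, plus strand: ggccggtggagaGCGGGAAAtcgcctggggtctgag
Mcm5, chr8:75109344-75109384, plus strand: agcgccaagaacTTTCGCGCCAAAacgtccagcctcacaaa
Mcm6, chr1:128359735-128359825, minus strand: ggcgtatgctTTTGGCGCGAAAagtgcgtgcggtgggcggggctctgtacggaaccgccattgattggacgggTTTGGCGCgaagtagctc
Cdk1, chr10:69352974-69353052, minus strand: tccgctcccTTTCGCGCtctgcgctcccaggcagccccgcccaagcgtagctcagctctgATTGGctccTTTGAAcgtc
Mki67, chr7:135716464-135716574, minus strand: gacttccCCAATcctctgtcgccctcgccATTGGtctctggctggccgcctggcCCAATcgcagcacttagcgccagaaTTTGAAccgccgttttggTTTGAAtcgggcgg
Top2a, chr11:99024199-99024339, minus strand: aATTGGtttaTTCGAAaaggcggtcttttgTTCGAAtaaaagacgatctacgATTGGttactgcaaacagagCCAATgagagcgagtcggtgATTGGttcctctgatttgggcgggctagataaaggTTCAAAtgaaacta
Kif11, chr19:37376327-37376377, plus strand: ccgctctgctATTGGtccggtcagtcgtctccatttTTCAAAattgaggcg

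In Mcm6 one pair of E2F matches overlaps head to head between positions -110 and -99 from the start, and another lies at -47 to -40. In Mki67 the CHR matches begin at -116 and -98, and in Kif11, the spindle motor Eg5, the CHR begins at -19 and the CCAAT box at -45. Of the genes shown, Cdc6, Mcm5 and Mcm6, with E2F motifs, fell by 2.54, 1.81 and 1.95 on the log2 scale in wild type, while Mki67, Top2a and Kif11, with CHR motifs, fell by 4.39, 4.71 and 3.87. Cdk1, with both kinds of motif, fell by 4.83. Other genes did not follow this order. Birc5, Nusap1, Cenpe and Ccnb1, with neither motif, had log2 fold changes of -4.11, -4.33, -3.64 and -3.93. The value of Ccnb1 rests on low counts at P8, from 5 to 27 per library. Uhrf1, with an E2F motif and no CHR, fell by 3.65 on the log2 scale. Mcm2, Cdc45 and Bub1b, with a CHR and no E2F motif, fell by 1.60, 2.25 and 2.16 on the log2 scale, and Mcm7, with both, fell by 0.97. Over all 38 genes with a window, the median log2 fold change in wild type was -2.17 for the 7 with an E2F motif and no CHR (-3.65 to -1.81), -3.80 for the 18 with a CHR and no E2F motif (-5.62 to -1.60) and -2.34 for the 11 with neither (-4.33 to -1.08), so that the ranges overlapped.

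**Figure D4:**
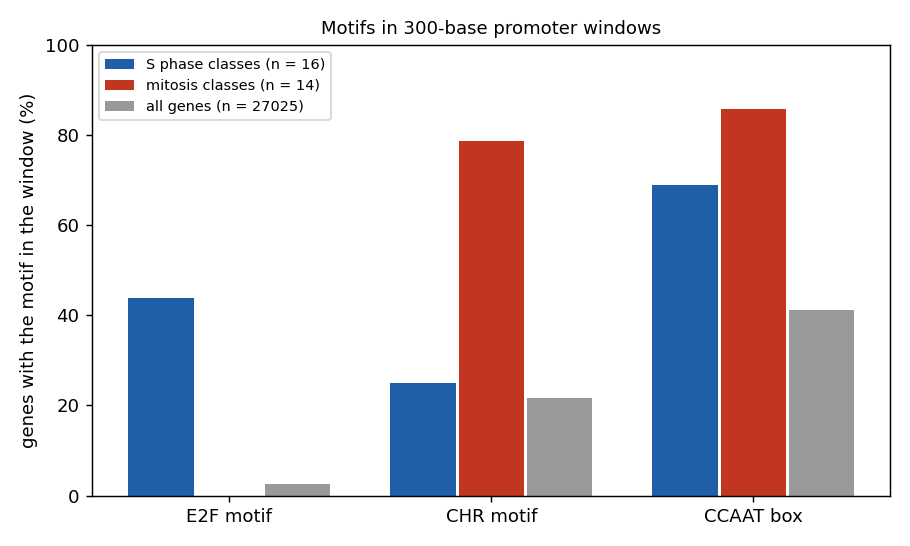
Share of genes with an E2F, CHR or CCAAT motif in the 300-base promoter window, for S phase genes (16 with a window), mitosis genes (14) and all genes (27025). The E2F bar is 43.8% for S phase genes and 0% for mitosis genes, and the CHR bar is 25% and 78.6%.

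Other genes of the same pathways showed how far the fall extended. Of 40 further mitosis genes, 38 fell in wild type and 39 in Kir2.1, with medians of -3.46 and -3.50. The condensin subunits Smc4 and Ncapd2, the most abundant of them, fell by 2.09 and 1.9 on the log2 scale in wild type and by 2.01 and 2.23 in Kir2.1. Of 37 further replication genes, 14 fell in wild type and 29 in Kir2.1, with medians of -0.73 and -1.10. Lig1, which seals Okazaki fragments, fell by 1.10 and 1.41 on the log2 scale. Orc4, a subunit of the origin recognition complex, stayed between 79.6 and 94.3 CPM in all 11 libraries, with log2 fold changes of 0.13 ± 0.12 and 0.03 ± 0.10 that did not pass the test.

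Upstream of S phase, 1 of 6 G1 cyclins and kinases fell in wild type and 4 of 6 in Kir2.1. Ccnd1, cyclin D1 of retinal progenitors, measured 663 and 336 CPM in wild-type P4, 712, 751 and 584 in Kir2.1 P4, 65.3, 49.7 and 75 in wild-type P8 and 78.4, 73.3 and 61.3 in Kir2.1 P8. All P8 libraries were far below all P4 libraries (log2 fold change -2.98 ± 0.25 and -3.26 ± 0.24, edgeR adjusted p = 1.7e-04 and 4.5e-05). Its partner Cdk4 had log2 fold changes of -0.50 and -0.70, of which only that in Kir2.1 passed (edgeR adjusted p = 0.19 and 0.020). Among 13 pocket proteins, E2Fs and mitotic transcription factors, 6 fell in wild type and 7 in Kir2.1. Rb1, the retinoblastoma gene, and Rbl2, its relative p130, had log2 fold changes between -0.08 and 0.32, none past the threshold. Foxm1, the forkhead factor of mitotic genes, was singled out after its values were seen: it measured 117 and 46.5 CPM in wild-type P4 and 6.13 to 9.19 CPM in the 6 P8 libraries, with log2 fold changes of -3.34 and -3.98 (edgeR adjusted p = 1.9e-04 and 4.9e-05). Of the 5 cyclin-dependent kinase inhibitors, 2 fell in wild type, 3 fell in Kir2.1 and 0 rose. Cdkn1b, the p27 inhibitor, had log2 fold changes of -0.38 and -0.55, of which only that in Kir2.1 passed (edgeR adjusted p = 0.18 and 0.015). Whether the genotypes differed in these counts was tested only by the difference between age changes, which called 0 genes of any list.

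Markers of retinal cells changed over the same interval. Of 16 progenitor markers, 8 fell and 0 rose in wild type, and 12 fell and 1 rose in Kir2.1. Their summed level overlapped between ages in wild type, at 1666 and 1023 CPM at P4 and 560, 718 and 1219 CPM at P8. Notch1, the receptor that keeps progenitors undifferentiated, went from 314 to 772 CPM over the P4 libraries to 128 to 224 CPM over the P8 libraries. All 10 rod markers rose in Kir2.1. In wild type 0 of 10 passed the adjusted threshold, but all 10 were above 0, with a median log2 fold change of 2.24 and an unadjusted p under 0.05 for each. Bipolar markers rose for 8 of 10 genes in Kir2.1 and 1 of 10 in wild type, where all 10 were above 0 with a median of 2.18. No rod marker had a count of 0 in any library, and Grm6 was at 0 in wild-type P4 replicate 1. Of 12 retinal ganglion cell markers, 10 fell and 0 rose in wild type, with a median log2 fold change of -2.56, and 10 fell and 1, Nefh, rose in Kir2.1, with a median of -1.57. Ganglion cells are neurons that no longer divide, and the median fall of their markers was larger than that of the S phase genes in wild type (-1.9) and smaller in Kir2.1 (-2.49). Mueller glia markers moved both ways, with 1 of 10 higher in wild type and 3 higher and 2 lower in Kir2.1, and 0 of 6 astrocyte markers were called. Microglia markers, another dividing population, summed to 239 to 520 CPM at P4 and 119 to 366 CPM at P8, with 0 of 10 called. All 10 were below 0 in both genotypes, with medians of -1.02 in wild type and -0.92 in Kir2.1. At an unadjusted edgeR p under 0.05, 6 were lower in wild type and 5 in Kir2.1, where 1974 and 2705 of all 18188 genes tested were. Endothelial markers summed to 440 to 745 CPM at P4 and 340 to 573 CPM at P8. Of 10 endothelial markers 0 were called in wild type, and in Kir2.1 3 rose and 1 fell, with a median log2 fold change of 1.75. The part of these cells in the fall of the cell cycle genes was not tested.

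The second question was whether the Kir2.1 and control retinas differed in these genes at one age. At P4 0 of the 46 genes passed the threshold in edgeR, where 0% of all genes tested did, and 4 were higher at an unadjusted p under 0.05, where 2.5% of all genes tested were. DESeq2 and voom on all libraries also called 0. Without the filter on low counts edgeR called 1, E2f8 (0.79, adjusted p = 0.031), where 0.928% of all genes were called in either direction. All 46 log2 fold changes were above 0 (51.3% of all genes tested), between 0.13 and 0.89 with a median of 0.45. That pattern rested on 1 library. Without wild-type P4 replicate 2 the median was -0.09, with 20 genes above 0 and 26 below, and without wild-type P4 replicate 1 it was 1.20, with 46 above 0. The genes at the ends of the range were Gmnn and E2f8 (0.89 ± 0.62 and 0.80 ± 0.39) and Ccnb1 and Depdc1a (0.13 ± 0.65 and 0.16 ± 0.76). Without wild-type P4 replicate 2 the values of Gmnn and E2f8 were 0.43 and 0.23, and without replicate 1 they were 1.57 and 1.76. Ccnb1, cyclin B1, measured 21.3 and 3.38 CPM in wild type and 14.6, 12.4 and 13.6 CPM in Kir2.1, so that both Kir2.1 extremes lay between the wild-type libraries. Gmnn measured 9.15 and 4.14 CPM in wild type and 11.4, 14.0 and 11.5 CPM in Kir2.1, with no overlap but an edgeR adjusted p of 0.76. With all libraries, the 16 retinal progenitor markers were also all above 0, with a median of 0.42. So were 34 of 37 further replication genes and 38 of 40 further mitosis genes. Rod markers at P4 summed to 253 and 1288 CPM in wild type and to 469, 808 and 570 CPM in Kir2.1, and ganglion cell markers to 1586 and 1006 CPM and to 803, 313 and 828 CPM. The part of these cells in the P4 values was not tested.

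The authors' deposited table for P4 gave a different count: 25 of the 46 genes were called higher in Kir2.1 and 0 lower, where it called 1.18% of its genes higher and 1.09% lower. In the authors' deposited table all 46 log2 fold changes were above 0, from 0.39 to 1.88, with a median of 0.97. The lowest adjusted p among them in the authors' deposited table was that of E2f8, with a log2 fold change of 1.53 and an adjusted p of 7.7e-08. Which libraries entered that table is not stated. Of the 740 genes with a count in wild-type P4 replicate 1 and no other P4 library, 75.8% had a mean of 0 in the authors' deposited table, and for each of the other 4 libraries this share was 12.5% to 16%. DESeq2 on the P4 libraries alone, an alternative chosen after seeing the data, called 0 of the 46 with all 5 libraries. Its median log2 fold change was 1.21 without wild-type replicate 1 and -0.094 without wild-type replicate 2. Each of these fits holds a lone wild-type library, so only the size of the change is given.

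**Figure D5:**
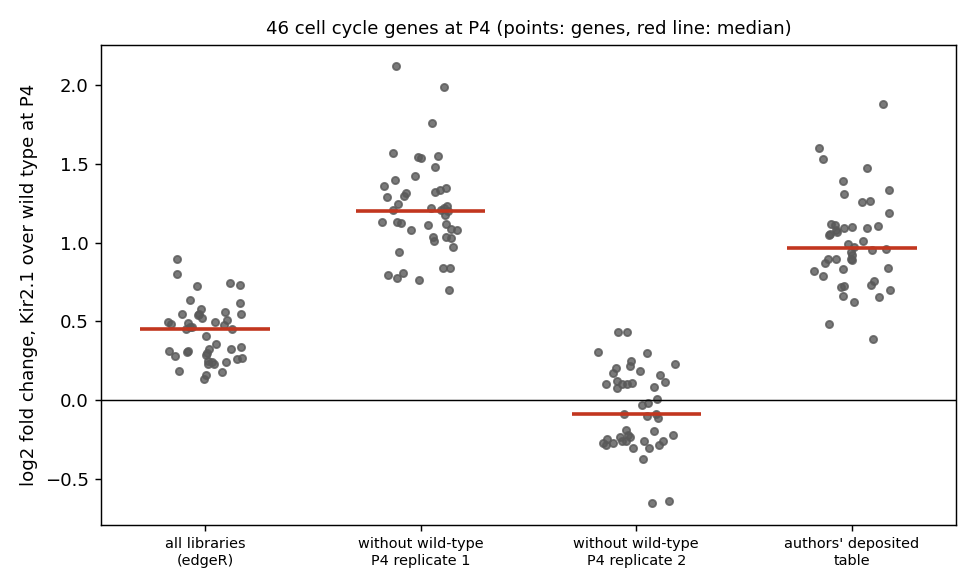
Log2 ratio of Kir2.1 to control at P4 for the 46 genes, with all libraries, without each wild-type P4 library in turn, and in the authors' deposited table; the red line is the median. The medians are 0.45, 1.20, -0.09 and 0.97.

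At P8 the levels were low in both genotypes. In edgeR 0 of the 46 genes passed, where 0% of all genes tested did, and 1 was higher at an unadjusted p under 0.05, where 2.89% of all genes tested were. DESeq2 and voom on all libraries also called 0. The median log2 fold change was 0.13, with 31 genes above 0 (50.5% of all genes tested) and 15 below. Plk1, polo-like kinase 1, was highest: it measured 0.733, 2.04 and 1.14 CPM in wild type and 3.23, 4.38 and 1.61 CPM in Kir2.1, and the groups overlapped (1.21 ± 0.46, edgeR adjusted p = 0.70). Without the filter on low counts edgeR called Plk1 and Bub1b higher (adjusted p = 0.030 and 0.028), where 1.22% of all genes were called in either direction. Cdk1 followed at 0.91 ± 0.56, and leaving out a wild-type P8 library gave 0.54 (replicate 1) to 1.42 (replicate 2). Ccne1, cyclin E1, was lowest: it measured 3.21, 4.85 and 3.50 CPM in wild type and 2.32, 1.88 and 2.86 CPM in Kir2.1, without overlap (-0.71 ± 0.33, edgeR adjusted p = 0.70). Cdc6, which loads the helicase at origins, was next at -0.46 ± 0.54, from levels of at most 2.30 CPM.

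The authors' deposited table for P8 gave an adjusted p for 26 of the 46 genes and called 1 higher, Bub1b, where it called 3.25% of its genes higher and 4.02% lower. In the authors' deposited table Bub1b had a log2 fold change of 1.55 and an adjusted p of 2.0e-04. In the 11 libraries Bub1b measured 80.0 and 34.5 CPM in wild-type P4 and 84.7, 66.8 and 57.6 in Kir2.1 P4. At P8 it measured 6.14, 8.42 and 23.8 CPM in wild type and 20.7, 17.3 and 24.2 CPM in Kir2.1. Wild-type P8 replicate 3 lay among the Kir2.1 libraries and the others below them (0.69 ± 0.44, edgeR adjusted p = 0.71). Without wild-type P8 replicate 3 the log2 fold change was 1.51 (edgeR adjusted p = 0.054), and without wild-type P8 replicate 1 it was 0.36. Rod markers summed to 840, 3329 and 7350 CPM in wild-type P8 and 6894, 6869 and 7094 CPM in Kir2.1, so that wild-type replicates 1 and 2 were again below the Kir2.1 libraries while replicate 3 was above them all. Their part in the Bub1b values was not tested. Of the 466 genes with a count in wild-type P8 replicate 3 and no other P8 library, 82.0% had a mean of 0 in the authors' deposited table, and for the other 5 libraries this share was 8.23% to 22.5%.

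The difference between the age changes of the 2 genotypes passed the test for 0 of the 46 genes. The difference, Kir2.1 minus wild type, had a median of -0.28 on the log2 scale, with 35 genes below 0, where 50.5% of all genes tested were. Among all genes tested 0% passed in edgeR. Of the 46, 3 were lower at an unadjusted p under 0.05, where 1.29% of all genes tested were. They were Mcm5, Uhrf1 and Ccne1, named after their values were seen, with differences of -0.85, -1.09 and -1.25. All 19 S phase genes had a difference below 0, with a median of -0.53, and 10 of 17 mitosis genes did, with a median of -0.11. Without wild-type P4 replicate 2 these medians were -0.17, with 14 genes below 0, and 0.43, with 3 below 0. Without wild-type P4 replicate 1 they were -1.17, with 19 below 0, and -0.94, with 16 below 0. Without wild-type P4 replicate 2 the median over the 46 genes was 0.10, and without wild-type P4 replicate 1 it was -0.97.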

How the data were processed

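Per the submitters' processing notes, the tools were cutadapt 1.18, STAR 2.5.0c, SAMtools 1.9, bedtools 2.26.0, HTSeq 0.6.1 and DESeq2 on build mm10. The authors deposited whole-number counts per Ensembl gene for each library, whose non-gene records (74.6% to 79.8% of all) were left out. The authors' deposited tables of Kir2.1 against wild type give, per the file headers, a mean normalized count (signal), a log2 fold change and an adjusted p-value.

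Counts were fitted with edgeR 4.0.16 (R 4.3.3): TMM, filterByExpr (minimum count 10, 18188 genes kept, all 46 members among them; 44 would pass in the P8 libraries alone), 1 quasi-likelihood model with 4 group means on 11 libraries, Benjamini-Hochberg over all genes, threshold 0.05. A p of Depdc1a rests on near-zero counts at P8. Scripts were tested on simulated data. Alternatives were DESeq2 1.42.0, voom (limma 3.58.1), no filter, a replicate block, 2 groups only and each library left out. Most named members are the 2 most abundant per role, the extremes of each comparison, and those said to be chosen after their values. Rrm2, E2f1, Cdk2 and some members named with their promoters, such as Kif11, Nusap1, Mcm2 and Cdc45, were named outside this rule. Members and lists were chosen with earlier results of these data known. Coordinates and overlaps are from GENCODE M21 (GRCm38).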

Additional observations from a re-analysis of the deposited data

How the results depend on the processing

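Over the alternatives, every fall with age among the named genes kept its direction, and in 22 cases such a fall no longer passed the threshold (in wild type Mcm6, Mcm7, Rrm1, Tyms, Bub1b and Depdc1a, in Kir2.1 Gins2 and Bub1b). The count of genes that fell in wild type (41) was 20 with only the wild-type libraries in the model, 36 to 44 under the other alternatives on all libraries, and 24 to 43 with 1 library left out; the median (-2.92) ranged from -3.47 to -2.08. In Kir2.1 (46) it was 43 to 46 with 1 library left out, and the median (-3.22) ranged from -3.52 without P8 replicate 2 to -3.05. Over all genes, 798 changed with age in wild type, against 1545 in the DESeq2 test, 2058 with no filter, 113 with only the wild-type libraries, 163 without wild-type P4 replicate 1 and 1339 without replicate 2.

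Without the filter, 1 gene at P4 (E2f8) and 2 at P8 (Plk1 and Bub1b) were called between genotypes. With 1 library left out, the P4 median ranged from -0.088 (without wild-type replicate 2) to 1.20 (without replicate 1), and the median difference between age changes from -0.97 to 0.10 for the same 2 libraries. At P4 Ccnb1 ranged from -0.65 to 1.99 and Depdc1a from -0.64 to 2.12, reversed without wild-type P4 replicate 2, and at P8 Cdc6 ranged from -0.72 to 0.10, reversed without wild-type P8 replicate 2. DESeq2 on the P4 libraries alone, chosen after seeing the data, gave 33 calls and a median of 1.21 without wild-type replicate 1, and a median of -0.094 without replicate 2, where Ccnb1 (-0.66) and Depdc1a (-0.65) reversed. On the P8 libraries alone without wild-type replicate 3 it called 1 gene, Bub1b, at 1.51 (DESeq2 adjusted p = 4.7e-05), and 0 with all 6. Where a wild-type P4 library was left out, the lone library was assumed to vary like the other groups. The cause of these changes was not tested.

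The labels do not say that replicate numbers pair the libraries, and the main model did not pair them. Deviations of same-numbered libraries correlated between -0.08 and 0.14. Differently numbered libraries were not compared, so these values cannot decide whether the numbers pair samples. With the replicate block 36 genes fell in wild type, with a median of -2.82, and 46 in Kir2.1, with a median of -3.27; 0 were called at P4 (median 0.54), at P8 (0.14) or in the difference between age changes (-0.42). Cdc6, Ccnb1 and Depdc1a, all below 3 CPM at P8, had standard errors of 0.54, 0.77 and 1.49 between genotypes at that age. These are too wide to show small differences. Birc5, also below 3 CPM at P8, had a standard error of 0.38.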
